A study of Rattus norvegicus with 6 samples.

Results

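The 10 genes described here are the NF-κB subunits Nfkb1, Nfkb2, Rel, Rela and Relb and the inhibitors Nfkbia, Nfkbib, Nfkbie, Nfkbiz and Tnfaip3, found by gene name among the 30562 rat genes of the deposited count table. NF-κB is a family of transcription factors that work as dimers of its subunits. In resting cells the dimers are held in the cytoplasm by IκB proteins. Signals from cytokine receptors and Toll-like receptors activate the IκB kinase (IKK) complex, which marks IκB for degradation and so frees the dimers to enter the nucleus. Several genes of the family are themselves NF-κB targets, so that activity raises the transcripts of its own inhibitors and of some subunits. In degenerating intervertebral discs NF-κB is known as a pathway through which inflammatory cytokines raise matrix-degrading enzymes.

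Bulk RNA of rat tail discs was sequenced in 6 libraries, 3 of a Control group and 3 of a group given AF-PTK@LEV@SPP1. Groups and replicate numbers were inferred from the names of the table's columns, since no record used here states which column belongs to which sample. By the methods of the study the rats were 12-week-old male Sprague-Dawley animals given a needle puncture of a tail disc, an injury that both groups share. Control discs received PBS, and the other discs received AF-PTK@LEV@SPP1, a vesicle of liposome fused with bacterial membrane vesicle that bears an annulus fibrosus (AF) binding peptide on a linker that reactive oxygen species cut and carries an siRNA against Spp1. It was injected as 10 μL with 1 mg/kg of siRNA from 24 h after surgery, and the discs are described at 8 weeks. The labels differ from this account. They name an untreated control, a treatment of 14 days and macrophages sorted from mouse discs. The siRNA is described as one against mouse Spp1. Libraries held 17942989, 16565291 and 17489851 counts in Control replicates 1, 2 and 3, and 17074981, 15560728 and 17855184 in libraries labelled AF-PTK@LEV@SPP1.

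Spp1, the gene the siRNA targets, had 8122.5, 4411 and 4417 normalized CPM (counts scaled to library size and composition) in Control replicates 1, 2 and 3, and 8054, 6903 and 8461 in libraries labelled AF-PTK@LEV@SPP1. The target was not called lower where the label names treatment, although the interval of its change includes lower values (log2 fold change 0.31, 95% confidence interval -0.62 to 1.24, adjusted p = 0.628 by edgeR), and every direction below is relative to the labels. Control replicates 2 and 3 were near-identical. Over 14393 genes their counts varied 1.33 times as much as counting noise, whereas the 5 other pairs within a group varied 51.3 to 107 times as much. Their counts were therefore summed and treated as 1 sample, which leaves 5 distinct samples, 2 of Control and 3 labelled AF-PTK@LEV@SPP1. Over these, the smallest p that a two-sided exact permutation test can reach is 0.1. Means below are over distinct samples, and changes are by edgeR's quasi-likelihood test over all 15537 genes that passed the filter on low counts. A gene is said to have fallen or risen where its Benjamini-Hochberg adjusted p was under 0.05.

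Transcripts of 5 of the 10 NF-κB genes fell in libraries labelled AF-PTK@LEV@SPP1, and 0 rose. The genes that fell were the subunits Nfkb2 and Relb and the inhibitors Nfkbia, Nfkbiz and Tnfaip3. Among all genes tested, 2.57% fell and 1.13% rose in the same test. All 10 passed the filter, with 77 to 2486 counts in each library. Their median log2 fold change was -0.89, against 0.05 for all genes tested. For 9 of the 10 genes, all libraries labelled AF-PTK@LEV@SPP1 lay below all Control libraries, and the exception was Rela. Among all genes tested, 20.1% showed the same. In bulk tissue, fewer cells of a type and less RNA per cell cannot be told apart.

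**Figure D1:**
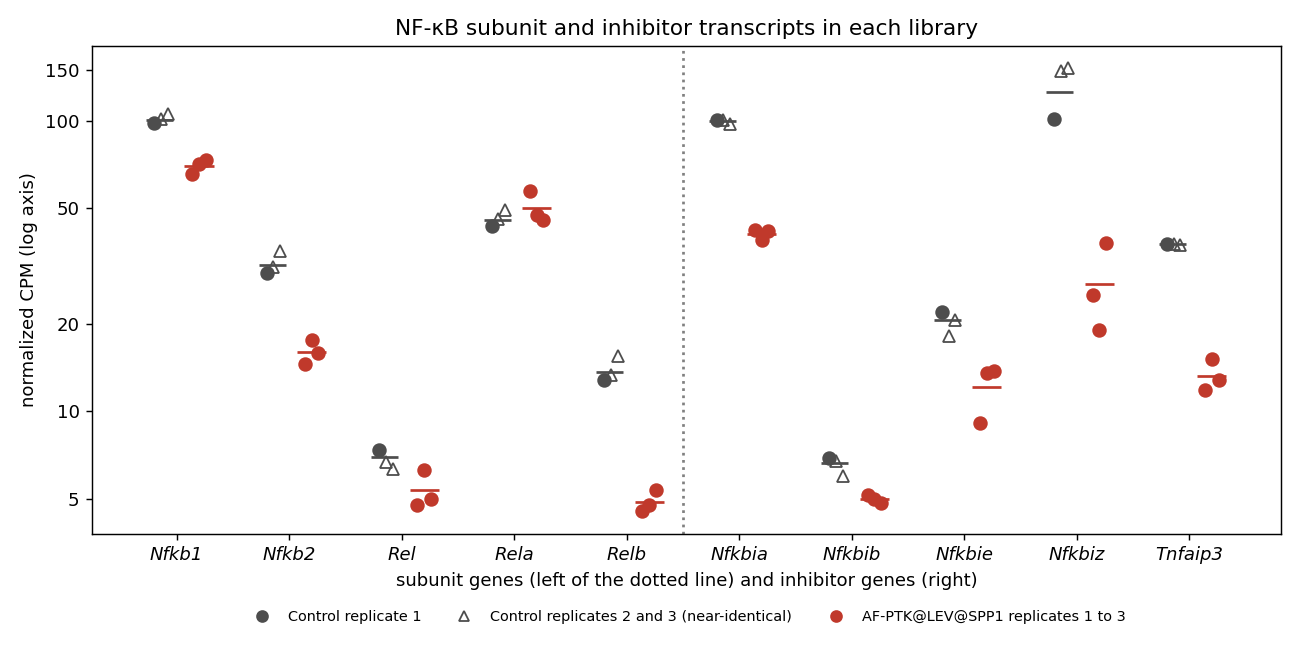
Normalized CPM on a log axis of the 10 NF-κB genes in each of the 6 libraries. Filled grey circles are Control replicate 1, open triangles the near-identical Control replicates 2 and 3, red circles the 3 libraries of the group labelled AF-PTK@LEV@SPP1, and horizontal lines mark the group means over distinct samples.

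Among the subunits, Relb had the largest estimated change. Its product pairs mainly with the mature product of Nfkb2 in the non-canonical branch of the pathway. Relb was at 12.8, 13.4 and 15.6 normalized CPM in Control replicates 1, 2 and 3, and at 4.53, 4.77 and 5.36 in libraries labelled AF-PTK@LEV@SPP1. The libraries of each group lay close together, and the lowest Control library was 2.39 times as high as the highest library of the other group. The mean fell from 13.6 ± 1.19 (SD, n = 2) to 4.88 ± 0.427 (SD, n = 3), a log2 fold change of -1.49 (standard error 0.17, 95% confidence interval -1.92 to -1.06, adjusted p = 0.0255 by edgeR). Nfkb2, which encodes the precursor of that partner, had 30.0, 31.5 and 35.8 normalized CPM in Control and 14.5, 17.6 and 15.9 in libraries labelled AF-PTK@LEV@SPP1. All Control libraries again lay above the others. Its log2 fold change was -1.001 (standard error 0.14, 95% confidence interval -1.35 to -0.66, adjusted p = 0.0337 by edgeR).

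The subunits of the canonical branch changed less in estimate, and none of them passed the threshold in edgeR on the 5 distinct samples. Nfkb1 encodes the precursor of the subunit that pairs with the product of Rela in the common canonical dimer. It was at 97.9, 101 and 106 normalized CPM in Control and at 65.4, 71.1 and 73.2 in libraries labelled AF-PTK@LEV@SPP1. The groups did not overlap, and the log2 fold change was -0.54 (standard error 0.11, 95% confidence interval -0.80 to -0.27, adjusted p = 0.0623 by edgeR). In the alternatives it was under the threshold with the 6 libraries kept apart (adjusted p = 0.0112 by edgeR) and in DESeq2 on the 5 distinct samples (adjusted p = 0.0000697). Rela, the subunit that carries the main activating domain of that dimer, had 43.6, 45.9 and 49.5 normalized CPM in Control and 57.2, 47.5 and 45.5 in libraries labelled AF-PTK@LEV@SPP1. Replicate 1 of the latter was the highest of the 6, and the remaining libraries of both groups overlapped. The log2 fold change of Rela was 0.12 (95% confidence interval -0.23 to 0.48, adjusted p = 0.614 by edgeR), so that a fall as large as that of Relb or Nfkb2 lies outside its interval. Without AF-PTK@LEV@SPP1 replicate 1 it was -0.01. Rel, a subunit most used in lymphoid and myeloid cells, was at 7.40, 6.69 and 6.35 normalized CPM in Control and 4.76, 6.27 and 5.02 in libraries labelled AF-PTK@LEV@SPP1. Its difference was within the error of the fit (log2 fold change -0.39, 95% confidence interval -0.92 to 0.15, adjusted p = 0.312 by edgeR).

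Among the inhibitors, Nfkbia encodes IκBα, the IκB protein that is degraded and remade fastest when the pathway is active. It was at 100.5, 100.6 and 97.5 normalized CPM in Control and at 42.0, 39.0 and 41.7 in libraries labelled AF-PTK@LEV@SPP1. Both groups were tight, and the highest of the latter was 1.08 times the lowest. The mean was 2.44 times as high in Control, and the log2 fold change of -1.30 had the smallest standard error of the 10 genes (0.10, 95% confidence interval -1.54 to -1.05, adjusted p = 0.0155 by edgeR). Tnfaip3, a ubiquitin-editing enzyme that shuts off signalling from cytokine receptors to IKK, was at 37.6, 37.8 and 37.4 normalized CPM in Control and 11.8, 15.1 and 12.9 in libraries labelled AF-PTK@LEV@SPP1. The Control libraries were nearly level, and those of the other group were all far lower. The log2 fold change was -1.51 (standard error 0.14, 95% confidence interval -1.87 to -1.15, adjusted p = 0.0196 by edgeR).

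Nfkbiz encodes IκBζ, an atypical nuclear IκB that also helps to activate a set of secondary response genes. It had 102, 148 and 152 normalized CPM in Control replicates 1, 2 and 3, and 25.2, 19.0 and 38.1 in libraries labelled AF-PTK@LEV@SPP1. This gene varied most within groups. Control replicate 1 was at 0.677 of the mean of replicates 2 and 3, and AF-PTK@LEV@SPP1 replicate 3 was 2.00 times as high as replicate 2. Even so, the lowest Control library was 2.67 times as high as the highest of the other group. The fitted log2 fold change, the largest of the 10, was -2.21 (standard error 0.34, 95% confidence interval -3.06 to -1.36, adjusted p = 0.0402 by edgeR).

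The other IκB genes did not pass the threshold. Nfkbie, which encodes IκBε, was at 21.9, 18.1 and 20.6 normalized CPM in Control and at 9.11, 13.6 and 13.8 in libraries labelled AF-PTK@LEV@SPP1. Replicate 1 of the latter was lowest, and no library of one group reached the other. Its log2 fold change was -0.77 (95% confidence interval -1.33 to -0.22, adjusted p = 0.115 by edgeR), while the adjusted p was 0.0437 by edgeR with the 6 libraries kept apart and 0.0239 by DESeq2 on the 5 distinct samples. Nfkbib, which encodes IκBβ, was at 6.93, 6.75 and 5.98 normalized CPM in Control and 5.17, 5.01 and 4.84 in libraries labelled AF-PTK@LEV@SPP1 (log2 fold change -0.42, 95% confidence interval -0.87 to 0.04, adjusted p = 0.225 by edgeR). Both are uncertain for a further reason. In the authors' annotation the span of Nfkbie overlaps that of Hsp90ab1, with a mean of 9761.5 counts, and the span of Nfkbib that of Sirt2, with 1324, each on the opposite strand. Nfkbie also overlaps Slc35b2 and Aars2 on its own strand, and the use of strand in counting is not given in the sources used here. The other 8 genes overlap no annotated gene.

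**Figure D2:**
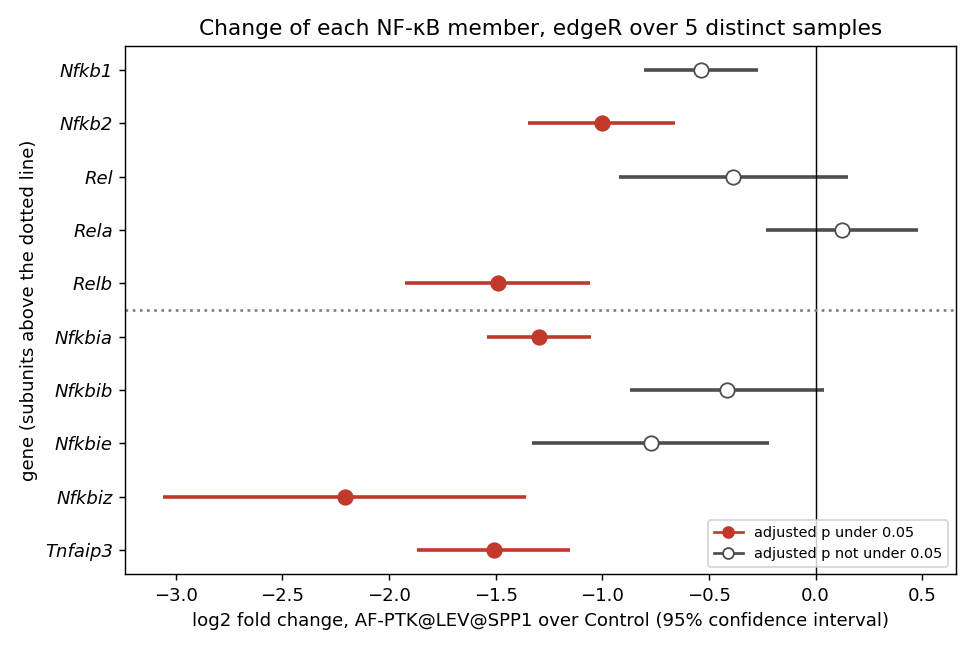
Log2 fold change of each NF-κB gene in libraries labelled AF-PTK@LEV@SPP1 over Control, with its 95% confidence interval by edgeR over 5 distinct samples. Filled red points have an adjusted p under 0.05.

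Over the distinct samples the two-sided exact permutation test gave p = 0.1, the smallest it can reach, for 8 of the 10 genes. It gave 0.2 for Rel and 0.6 for Rela. The share of all genes at 0.1 was not computed, but 20.1% of all genes lay wholly below Control and 21.8% wholly above it. With the 6 libraries kept apart, 7 of the 10 genes fell, against 9.93% of all genes, and DESeq2 on the 5 distinct samples also had 7 of the 10 lower, against 9.27% of all genes. The additional genes were Nfkb1 and Nfkbie in both. The calls rest on few samples. Without Control replicate 1, Nfkbia passed (adjusted p = 0.0392 by edgeR), against 1.34% of all genes lower, and 4 other calls were lost, with adjusted p up to 0.0691. Without AF-PTK@LEV@SPP1 replicate 1, Nfkbia (adjusted p = 0.0418 by edgeR) and Tnfaip3 (0.0493) passed, against 0.54% of all genes lower. Without Control replicates 2 and 3, or without AF-PTK@LEV@SPP1 replicate 2 or 3, 0 of the 10 genes passed in edgeR, with 7 of the 10 at an unadjusted p under 0.05 in each of these fits, and over all genes 3 (0.0187%), 0 and 0 passed, with 2572, 3109 and 2699 at an unadjusted p under 0.05. The log2 fold changes of the genes that fell kept their direction in all 17 alternatives, from -1.59 to -1.40 for Relb, -1.09 to -0.91 for Nfkb2, -1.35 to -1.26 for Nfkbia, -1.61 to -1.46 for Tnfaip3 and -2.51 to -1.90 for Nfkbiz.

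Ratios of counts within a library do not depend on the scaling between libraries. They were taken in plain counts, since no transcript lengths were used here, and their size therefore also reflects transcript length. The ratio of Nfkbia to Rela was 2.31, 2.19 and 1.97 in Control replicates 1, 2 and 3 and 0.735, 0.820 and 0.917 in libraries labelled AF-PTK@LEV@SPP1. Nfkbia thus outnumbered Rela in counts in each Control library and fell short of it in each of the others (log2 difference -1.41, two-sided exact permutation test, p = 0.1, n = 2 and 3). The summed counts of the 5 inhibitors over those of the 5 subunits were 1.40, 1.57 and 1.47 in Control and 0.637, 0.622 and 0.768 in libraries labelled AF-PTK@LEV@SPP1. This log2 difference was -1.12 (exact permutation test, p = 0.1), and it was -0.76 with Nfkbiz left out of the inhibitors. Within the subunits, the ratio of Relb to Rela was 0.293, 0.292 and 0.315 in Control and 0.0792, 0.1003 and 0.118 in libraries labelled AF-PTK@LEV@SPP1, a log2 difference of -1.61. The ratio of Nfkb2 to Nfkb1 was 0.306, 0.312 and 0.338 against 0.222, 0.248 and 0.217, a log2 difference of -0.47. These last ratios were chosen after the values were seen, so they only describe the levels above. Their exact permutation p was 0.1, the smallest possible, and carries no weight as a test. In each ratio named here the groups did not overlap.

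Of the genes whose log2 level over the 5 distinct samples was most like that of Nfkbia, by the root-mean-square difference after centring each gene on its mean, the nearest were Sat1, Gsap, Ifitm3, Enpp2 and Ralgds, at 0.0664, 0.0698, 0.0801, 0.0819 and 0.0903 log2 units among 10094 genes whose mean log2 CPM reached 3. Sat1 was at 281, 259 and 252 normalized CPM in Control and 107, 96.7 and 114 in libraries labelled AF-PTK@LEV@SPP1. Like Nfkbia, it had a narrow range in each group. Many genes outside the family lay nearer to Nfkbia than its members did. Tnfaip3 was at 0.184 (rank 71 of the 10094) and Nfkb2 at 0.199 (rank 87), while Nfkbiz at 0.575 (rank 3240) and Rela at 0.701 (rank 6018) were farthest. Relb was at 0.135, where it would rank 26, but its mean log2 CPM of 2.92 is under 3 and it is not among the genes compared. Positions along the genome were mixed. In the authors' annotation, whose build is not named, Nfkb2, Rela, Relb, Nfkbib and Tnfaip3 lie on chromosome 1, and 3 of these 5 fell. Nfkbia lies on chromosome 6 from 72858712 to 72861941 and Nfkbiz on chromosome 11 from 44782676 to 44810723.

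Promoters of the genes were read because several of them changed together and are known targets of NF-κB. RefSeq promoters of the rat assembly GRCr8, which run from 250 bases before to 50 bases after each gene start, were matched by symbol for 9 of the 10 genes, all but Relb. Both strands were searched for the κB consensus, the binding motif of NF-κB dimers, and for the looser motif GGGNNNNNCC, which contains it. The consensus was present in 7 of the 9 promoters and in 7.51% of all 33469 promoters of the same length. The looser motif was present in 9 of the 9 and in 47.3% of all. Of the genes that fell, Nfkb2, Nfkbia, Nfkbiz and Tnfaip3 hold the consensus, and of those that did not pass the threshold, Nfkb1, Rel and Nfkbie do. Nfkbia and Nfkbiz share the match GGGAATTTCC, as does Nfkb1, on the minus strand of the gene at positions -31 to -22 for Nfkbia and on the plus strand at -13 to -4 for Nfkbiz. Nfkb2 and Tnfaip3 share GGGACTTTCC, on the plus strand at -20 to -11 for Nfkb2 and on the minus strand at -67 to -58 for Tnfaip3, which also has matches at -55 to -46 and at -170 to -161. Rela and Nfkbib have no match of the consensus in this window. Such a match describes the sequence and is not evidence of binding in these discs.

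The promoters of the genes that fell and that have an entry, with Rela for comparison, are printed 5′ to 3′ in the direction of the gene, with coordinates in GRCr8 and matches of the κB consensus in capitals.
Nfkb2, chr1:255108124-255108423, plus strand: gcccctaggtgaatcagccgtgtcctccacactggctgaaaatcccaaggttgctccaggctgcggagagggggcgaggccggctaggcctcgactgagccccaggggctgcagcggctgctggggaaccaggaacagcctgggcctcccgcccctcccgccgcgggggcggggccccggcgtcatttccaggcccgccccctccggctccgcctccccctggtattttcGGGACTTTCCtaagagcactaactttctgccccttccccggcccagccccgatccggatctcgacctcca
Nfkbia, chr6:78597023-78597322, minus strand: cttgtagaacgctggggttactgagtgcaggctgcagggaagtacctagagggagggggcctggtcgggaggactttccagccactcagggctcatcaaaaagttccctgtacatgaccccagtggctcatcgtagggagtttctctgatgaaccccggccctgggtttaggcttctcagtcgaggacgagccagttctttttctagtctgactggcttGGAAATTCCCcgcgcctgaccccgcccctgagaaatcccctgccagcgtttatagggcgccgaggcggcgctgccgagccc
Nfkbiz, chr11:58251471-58251770, plus strand: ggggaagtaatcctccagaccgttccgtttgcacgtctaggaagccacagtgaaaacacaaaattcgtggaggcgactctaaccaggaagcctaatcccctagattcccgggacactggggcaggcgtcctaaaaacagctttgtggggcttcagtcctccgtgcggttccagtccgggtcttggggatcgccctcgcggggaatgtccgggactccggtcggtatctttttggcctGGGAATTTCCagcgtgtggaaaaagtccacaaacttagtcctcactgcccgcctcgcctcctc
Tnfaip3, chr1:15543930-15544229, minus strand: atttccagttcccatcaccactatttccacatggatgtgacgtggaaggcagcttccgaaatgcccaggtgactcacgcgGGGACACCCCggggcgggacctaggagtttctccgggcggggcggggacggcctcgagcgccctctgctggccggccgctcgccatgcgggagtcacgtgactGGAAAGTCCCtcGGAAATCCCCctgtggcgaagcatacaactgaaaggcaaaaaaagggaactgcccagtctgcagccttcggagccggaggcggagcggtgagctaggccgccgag
Rela, chr1:212354086-212354385, plus strand: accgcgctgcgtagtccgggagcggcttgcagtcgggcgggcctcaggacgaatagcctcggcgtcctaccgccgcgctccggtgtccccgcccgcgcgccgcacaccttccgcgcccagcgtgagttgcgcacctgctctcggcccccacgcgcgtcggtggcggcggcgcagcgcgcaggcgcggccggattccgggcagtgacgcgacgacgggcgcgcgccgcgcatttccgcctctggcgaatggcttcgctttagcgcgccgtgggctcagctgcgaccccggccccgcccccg

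The wider pathway was described with 7 lists of genes outside the 10, read in the same fit over all genes. Of the 128 genes of these lists in the table, 122 were tested, 25 fell and 0 rose. Among all genes tested, 2.57% fell and 1.13% rose, and these shares are the background for each list below. The list of the IKK complex and kinases linked to it had 11 tested genes. Map3k8, a kinase that acts downstream of Toll-like receptors and is held by the product of Nfkb1, was the 1 that fell. The log2 fold changes ran from -1.04 to 0.36 with a median of -0.05, and 4 of the 11 genes lay wholly below Control and 1 wholly above it, against 20.1% and 21.8% of all genes tested. Map3k8 was at 29.6, 26.9 and 30.4 normalized CPM in Control and at 12.5, 14.3 and 16.0 in libraries labelled AF-PTK@LEV@SPP1 (log2 fold change -1.04, adjusted p = 0.0339 by edgeR). Tab2, an adaptor of the kinase complex and the most abundant of the list, had a log2 fold change of -0.05 (95% confidence interval -0.32 to 0.21, adjusted p = 0.778 by edgeR).

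Receptors that signal to NF-κB had 4 of 25 tested genes lower and a median log2 fold change of -0.46. Tlr2, a receptor for bacterial lipoproteins, was at 90.8, 80.1 and 80.0 normalized CPM in Control and at 8.17, 16.7 and 19.0 in libraries labelled AF-PTK@LEV@SPP1, a log2 fold change of -2.55 (adjusted p = 0.0349 by edgeR). Cd14, a co-receptor for lipopolysaccharide and the most abundant gene of the list, was at 152, 134 and 134 in Control against 38.2, 36.1 and 41.5 (log2 fold change -1.89, adjusted p = 0.0119 by edgeR). Il1r1, the signalling receptor for interleukin-1, had 129, 111 and 114 in Control against 54.6, 51.3 and 40.2 (log2 fold change -1.32, adjusted p = 0.0295 by edgeR). In none of these genes did the groups overlap. Of the ligands, 2 of 13 tested genes fell and the median was -0.16. Tnfsf11, the ligand known as RANKL, was at 111, 137 and 135 normalized CPM in Control and at 9.17, 10.6 and 9.004 in libraries labelled AF-PTK@LEV@SPP1, a log2 fold change of -3.70 (95% confidence interval -4.07 to -3.33, adjusted p = 0.00863 by edgeR). Il1a was at 9.66, 11.7 and 12.3 in Control and had at most 3 counts in each library of the other group, and was therefore at least 61.5-fold lower than the Control mean, measured against a floor of 3 counts in each library (adjusted p = 0.0213 by edgeR). S100a9, the most abundant ligand gene, had 457, 85.0 and 78.3 in Control and 107, 1060.5 and 1487 in libraries labelled AF-PTK@LEV@SPP1. It varied by over 5 times within both groups (95% confidence interval of the log2 fold change -1.45 to 4.87, adjusted p = 0.432 by edgeR).

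Adaptors and ubiquitin ligases that link receptors to IKK had 3 of 21 tested genes lower and a median log2 fold change of -0.29. Birc3, a ubiquitin ligase of tumor necrosis factor receptor complexes, was at 35.3, 29.6 and 29.6 normalized CPM in Control and 5.997, 6.27 and 7.12 in libraries labelled AF-PTK@LEV@SPP1 (log2 fold change -2.33, adjusted p = 0.0119 by edgeR). The kinase Ripk2 (log2 fold change -1.26, adjusted p = 0.0221 by edgeR) and the Birc3 relative Birc2 (log2 fold change -0.63, adjusted p = 0.0484) were lower by less than Birc3. Irak1, the most abundant of these genes, did not pass (log2 fold change -0.26, 95% confidence interval -0.57 to 0.05, adjusted p = 0.249 by edgeR). Further negative regulators had 3 of 21 lower and a median of -0.27. Zc3h12a, an RNase that degrades inflammatory transcripts, was at 37.7, 39.2 and 39.7 normalized CPM in Control and at 9.11, 9.41 and 10.9 in libraries labelled AF-PTK@LEV@SPP1 (log2 fold change -1.98, adjusted p = 0.0119 by edgeR). The others were Traf1 and Irak3, at log2 fold changes by edgeR of -1.59 and -0.93 (adjusted p = 0.0484 and 0.0391). Tax1bp1, an adaptor of the Tnfaip3 product and the most abundant of the list, had a log2 fold change of -0.14 (95% confidence interval -0.41 to 0.13, adjusted p = 0.449 by edgeR). Of the 3 atypical IκB genes outside the 10, Bcl3 fell, from 19.4, 21.9 and 19.4 normalized CPM in Control to 3.12, 3.92 and 4.16 (log2 fold change -2.43, adjusted p = 0.0155 by edgeR). The median of the 3 was -0.07.

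Textbook target genes of NF-κB had 13 of 33 tested genes lower, 0 higher and a median log2 fold change of -1.66. Of the 33, 28 had a log2 fold change below 0, while the median over all genes tested was 0.05. Ccl20, a chemokine, was at 9.76, 33.8 and 36.0 normalized CPM in Control and had at most 1 count in any library of the other group, and was therefore at least 127-fold lower than the Control mean against the floor of 3 counts (adjusted p = 0.0205 by edgeR). The bound was 55.4-fold against Control replicate 1 alone and 198-fold against Control replicates 2 and 3. Cxcl2 was at 27.4, 72.1 and 68.0 in Control against 0.235, 0.121 and 0.399, and Cxcl1 at 50.5, 101 and 107 against 0.176, 1.03 and 1.31, at log2 fold changes by edgeR of -7.56 and -6.52 (adjusted p = 0.0182 and 0.0221). Mmp3, a matrix-degrading enzyme and the most abundant target, was at 920, 1738 and 1784 normalized CPM in Control and at 89.7, 97.4 and 77.9 in libraries labelled AF-PTK@LEV@SPP1 (log2 fold change -3.93, adjusted p = 0.0194 by edgeR). For these 4 genes Control replicate 1 was the lowest Control library and still lay far above the other group. Birc3 and Traf1 stand in this list and in one of the former. So do Il1b and Tnf, which did not pass, at log2 fold changes by edgeR of -2.61 and -1.18 (adjusted p = 0.0743 and 0.435). The 25 genes of the lists that fell became 18 without Control replicate 1, where 1 rose, 14 without AF-PTK@LEV@SPP1 replicate 1, 1 without Control replicates 2 and 3, and 0 without AF-PTK@LEV@SPP1 replicate 2 or 3, all by edgeR. With the 6 libraries kept apart they were 40, and with DESeq2 on the 5 samples 41, where 1 rose, in fits in which 9.93% and 9.27% of all genes were lower in place of 2.57%.

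**Figure D3:**
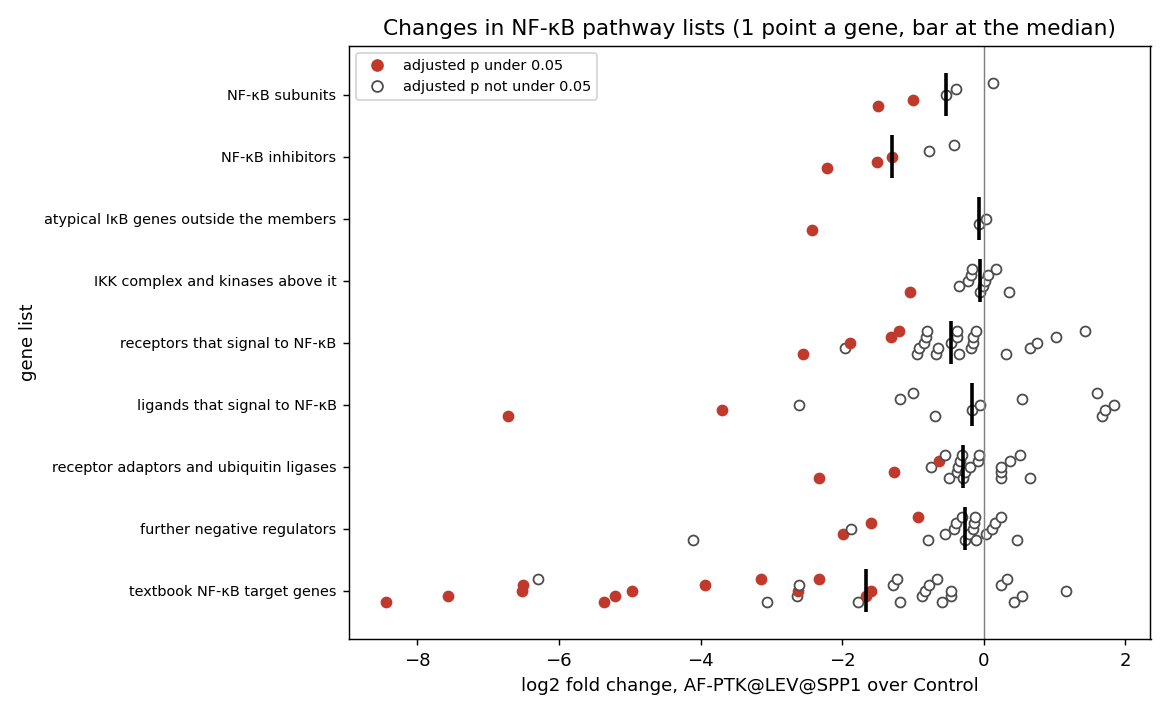
Log2 fold change in libraries labelled AF-PTK@LEV@SPP1 over Control of each tested gene of the NF-κB subunits, the inhibitors and 7 further lists, with filled red points for an adjusted p under 0.05 by edgeR and black bars at list medians. For Ccl20, Il1a, Csf2 and Csf3 the libraries labelled AF-PTK@LEV@SPP1 each held at most 3 counts, so the position of their points depends on the prior count of the fit.

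Cell content differed between libraries, as read from 11 lists of markers, and its part in the changes above was not tested. Calls of markers are by edgeR on the 5 distinct samples, unless another fit is named. In that fit 2.57% of all genes tested fell and 1.13% rose. Of 15537 genes DESeq2 on these samples called 1440 lower and 1132 higher. With the 6 libraries kept apart edgeR called 1494 of 15042 lower and 1233 higher. Macrophage and monocyte markers had 2 of 13 tested genes lower, Cd68 and Cd14, and a median log2 fold change of -0.79. Their summed level was 3224, 2175 and 2154 normalized CPM in Control and 732, 2032 and 2038 in libraries labelled AF-PTK@LEV@SPP1. Lyz2 was the most abundant, and without it the sums were 1391, 908 and 907 against 461, 790 and 637. Cd68 was at 150.03, 112 and 116 in Control against 28.5, 42.1 and 30.9 (log2 fold change -1.97, adjusted p = 0.0231 by edgeR). DESeq2 also called Csf1r and Mrc1 lower (adjusted p = 0.00912 and 0.000205). Markers of all leukocytes summed to 1031, 556 and 553 in Control and 279, 821 and 811 in libraries labelled AF-PTK@LEV@SPP1, with Lcp1 the most abundant and 0 of 8 called. AF-PTK@LEV@SPP1 replicate 1 thus had the fewest leukocyte transcripts, while replicates 2 and 3 had more than Control replicates 2 and 3.

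Neutrophil markers, led by S100a9, summed to 1233, 197 and 185 normalized CPM in Control and 321, 3192 and 4302 in libraries labelled AF-PTK@LEV@SPP1, with 0 of 11 called. Markers of T or NK cells summed to 23.6, 20.6 and 21.2 against 10.6, 22.4 and 28.3, led by Nkg7. Without Nkg7 the sums were 19.2, 19.9 and 21.0 against 8.996, 11.0 and 11.3, where the groups did not overlap. Of 8 tested genes 2 fell, Cd8b and Cd8a, at log2 fold changes by edgeR of -2.73 and -2.19 (adjusted p = 0.0427 and 0.0363). DESeq2 also called Cd3e and Cd3g lower (adjusted p = 0.0179 and 0.043). Markers of B or plasma cells, led by Jchain, summed to 283, 53.7 and 48.1 against 186, 444 and 365, with 0 of 10 called by edgeR. DESeq2 called Vpreb1 higher (log2 fold change 2.97, adjusted p = 0.0319). Erythroid markers, led by Hba-a1, summed to 2725, 3369.6 and 3465 against 2650.2, 20872 and 14286, with 0 of 8 called by edgeR. DESeq2 called Hba-a1, Alas2, Klf1 and Epor higher (adjusted p = 0.0375, 0.0134, 0.0378 and 0.0455). Skeletal muscle markers, led by Acta1, summed to 1125, 1432 and 1456 against 1078.5, 11569.5 and 2882, with 0 of 7 called. Neutrophil, erythroid and muscle sums were thus higher in AF-PTK@LEV@SPP1 replicates 2 and 3 than in any other library. In replicate 1 the erythroid and muscle sums lay below every Control library, and the neutrophil sum lay between Control replicate 1 and Control replicates 2 and 3. Adipocyte markers, led by Car3, summed to 1438, 300.4 and 301 against 4024, 4257 and 2531. For 8 of 8 adipocyte markers all libraries labelled AF-PTK@LEV@SPP1 lay above all Control ones, as did 21.8% of all genes tested, and 0 were called by edgeR. DESeq2 called Plin1, Cidec, Lep, Car3 and Fabp4 higher (adjusted p = 0.00878, 0.0179, 0.00245, 0.0095 and 0.0214). With the 6 libraries kept apart edgeR called Lep higher (adjusted p = 0.0403). Endothelial markers, led by Pecam1, summed to 620.05, 770.45 and 757 against 476, 539 and 548, with 0 of 8 called by edgeR. For 4 of the 8, all libraries labelled AF-PTK@LEV@SPP1 lay below all Control ones, as did 20.1% of all genes tested. DESeq2 called Pecam1, Tie1 and Vwf lower (adjusted p = 0.0147, 0.0301 and 0.0054). With the 6 libraries kept apart edgeR called 4 of the 8 lower.

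Disc markers were abundant in every library, although the labels describe sorted macrophages. Annulus or fibroblast markers summed to 61600.4, 90854 and 91715 normalized CPM in Control and 118527, 85069.7 and 102399 in libraries labelled AF-PTK@LEV@SPP1, with Col1a1 the most abundant. Of 9 such markers 1 fell, Lum, with a log2 fold change of -3.40 (adjusted p = 0.0303 by edgeR). DESeq2 also called Col1a2 and Mkx higher (adjusted p = 0.0173 and 0.0212). Nucleus pulposus or cartilage markers, led by Col2a1, summed to 18914, 29711 and 29581 against 38586, 26534.5 and 42509, with 0 of 9 called by edgeR. Tbxt was at 142, 17.4 and 17.3 in Control against 757, 308 and 332. Krt8 was at 287, 67.0 and 64.7 against 1477, 478 and 523. These 2 markers lay wholly above Control, as did 21.8% of all genes, and 2 others, Matn3 and Car12, wholly below it, as did 20.1%. DESeq2 called the former higher (adjusted p = 0.0194 and 0.0236) and the latter lower (0.01003 and 0.000332). With the replicate block edgeR called 1 lower and 2 higher.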

How the data were processed

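The authors deposited raw counts, a whole number of reads per Ensembl rat gene and library, with no normalization. The submitters' processing notes list FastQC, Trimmomatic, HISAT2, featureCounts and DESeq2, without versions, and name the mouse build mm10, while the genes are from rat. The build of the table and the use of strand are not given in the sources used here. The members and lists were chosen with earlier results of these data known.

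Control replicates 2 and 3 were summed because, among genes reaching 20 counts over both, they varied less than 2 times as much as counting noise. Counts of the 5 distinct samples entered edgeR 4.0.16 under R 4.3.3 (TMM normalization, filterByExpr, quasi-likelihood test, Benjamini-Hochberg adjustment over 15537 genes, adjusted p under 0.05). The common biological coefficient of variation was 0.302. Normalized CPM per library used TMM factors of the 6 libraries, log2 CPM a prior count of 2, and a level of 3 counts in a library was taken as the floor, which covers counting error only. Labels name separate samples, and the study describes separate animals. The ratios had been planned per kilobase of transcript, but no exon lengths were used here, so plain counts were taken. Genes named are the 10 members, the genes that overlap them, Spp1, the most abundant tested gene of each list and up to 3 called genes with the largest change. Named as well are the 5 genes most like Nfkbia, tested genes at the floor, target genes in 2 lists, and markers called by DESeq2 but not in the main fit. Alternatives were DESeq2 1.42.0, limma-voom (limma 3.58.1), other normalizations and filters, a robust fit, a fold change threshold, the 6 libraries kept apart with and without the replicate number as a block, and each library left out. The scripts were tested on simulated data. Promoters were scanned with Python 3.11.15.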

Additional observations from a re-analysis of the deposited data

How the results depend on the processing

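Of the 10 NF-κB genes, 9 kept a negative log2 fold change in all 17 alternatives, and Rela reversed once, to -0.015 without AF-PTK@LEV@SPP1 replicate 1, and was 0.193 without AF-PTK@LEV@SPP1 replicate 3. The genes Nfkb2, Relb, Nfkbia, Nfkbiz and Tnfaip3 passed in each of the 10 alternatives that kept all libraries. The median log2 fold change of the 10 genes stayed between -0.96 and -0.80. Against 575 genes called, edgeR called 2727 with the 6 libraries kept, where the near-identical pair counts as separate replicates, and DESeq2 called 2572 on the 5 samples, for which the cause was not tested. With each library left out, edgeR called 0 to 566 genes and 0 to 5 of the 10, and 3109 and 2699 genes had an unadjusted p under 0.05 where 0 were called. A Control group of 1 sample was assumed to vary like the other group, and fewer samples were then available. With the replicate block on 6 libraries 741 genes were called, and 5 of the 10 (Nfkb1 adjusted p = 0.0585 by edgeR). Same-numbered libraries had correlations of deviations of -0.326, -0.282 and -0.0756 across genes. Deviations were taken from the mean of each group, and Control replicates 2 and 3 are near-identical. These correlations are therefore tied to each other and cannot decide whether the numbers pair the samples. The log2 difference of inhibitors to subunits, -1.12, was -0.76 without Nfkbiz, an alternative chosen after seeing the data. The 10 genes had at least 77 counts in each library, and the Control group held 2 distinct samples.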
